A study of Drosophila melanogaster with 24 samples.

Results

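Young adult flies of Drosophila melanogaster were set against embryos 0-4 h old. The arrays that carry the young adult label were taken, which are 3 of the 24 arrays of a study of the fly life cycle. The other arrays hold older embryos (4-8 h, 8-12 h, 12-16 h), larvae pooled over their ages, and pupal stages 1, 2 and 3. Every array was a two-colour spotted glass slide, on which RNA of the stage competed with reference RNA from 0-4 h embryos. The adults were whole flies, collected as males and females. The labels give neither their age and strain nor the proportion of the sexes. Arrays b and c carried the adult RNA in the Cy3 channel and array a carried it in the Cy5 channel. A value below is the log2 ratio of young adults over 0-4 h embryos, turned to this direction on every array and centred on the array's median, so that a value of 1 stands for a doubling relative to the median spot. Whole flies hold many tissues, so more cells of a type and more RNA per cell cannot be told apart.

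An embryo in its first hours is run largely by RNA that the mother loaded into the egg, divides its nuclei fast and nearly in step, and then turns on its own genes as the blastoderm forms. The adult fly has finished its growth: most of its somatic cells no longer divide, and it has flight muscle, compound eyes, a feeding gut and mature gonads with their accessory glands. The comparison therefore sets genes of differentiated adult organs beside genes of maternal supply, cleavage and blastoderm patterning.

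The 3 adult arrays had deposited medians of -1.24, 0.23 and 0.29 before their direction was turned. Duplicate spots of a probe correlated at r = 0.776 on array a, 0.657 on array b and 0.534 on array c, so array a was the most even and array c the least. Across probes, which are not independent replicates, arrays b and c of the same dye orientation correlated at 0.748, and array a correlated with them at 0.588 and 0.551. A dye term was therefore fitted for each probe, and it passed the test for 3632 of 23808 probes. Whether the replicates came from separate flies is not stated, so the spread between arrays may be technical. A p-value or SE below rests on the spread of replicates over all stages (23 arrays, residual df 14), not on the adult arrays alone. For swa the adult arrays had an SD of 0.10 and the value an SE of 0.79. For TpnC4 these were 1.81 and 0.55. The test against 0 leaves out the spread of the embryo reference itself. The precision is limited by the number of arrays, and the median standard error of an adult value was 0.43.

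Markers of the expected tissues were looked at first. All 4 probes of adult flight muscle genes were higher in young adults, as were the 3 probes of the photoreceptor genes Arr1, Arr2 and trp; the opsin genes ninaE, Rh3, Rh4 and Rh6 had no named probe. Genes of the reproductive organs of both sexes were among the higher ones. Of 6 probes of testis genes 3 were higher and 1 lower, of 3 probes of accessory gland genes 2 were higher, and of 6 probes of yolk protein and eggshell genes 5 were higher. The early embryo genes Z600, dhd, osk and slam were lower in young adults with 4 of 4 probes. Among genes of larvae the glue genes Sgs3 and Sgs4 and the larval cuticle gene Lcp65Ag1 did not pass the test, whereas both probes of Lsp2 were higher, at 5.996 and 4.76.

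Between young adults and 0-4 h embryos 8189 of 23808 probes differed (limma, adjusted p under 0.05), which is 34.4% of the probes. Of these, 3626 were higher in young adults (15.2% of the probes) and 4563 were lower (19.2%). The higher probes belonged to 2338 named genes and the lower probes to 3414. The lists below hold only probes with 1 gene symbol, and of these 13455 probes 2497 were higher and 3689 lower. Such probes were called more often than all probes (45.98%, against 34.4%). A share of all probes set beside a list is therefore lower than the share of probes with 1 symbol. Where a list count against 0-4 h embryos stands alone, the shares of all probes were 15.2% higher and 19.2% lower. Although fewer, the higher probes reached further: 235 were higher by at least 4 on the log2 scale and 84 by at least 5, whereas 78 were lower by at least 4 and 12 by at least 5. Most called probes had one sign on all adult arrays, which a call from their mean makes likely. Of the higher probes 3490 lay above 0, and of the lower probes 4520 lay below 0, on each of the 3 arrays. With 1 adult array left out, between 6123 and 6537 probes were called. The balance of the directions depended on the centring. With the deposited medians kept, the median over probes was -0.49, against 0.06 after centring, and 22.6% of 5704 called probes were higher, against 44.3% of 8189. Every direction below is thus relative to the median probe. With the 3 adult arrays fitted alone 3620 probes passed. Of the 24 gene lists below, 16 then had fewer called members by over 1.5 times, with 27 higher probes of the respiratory chain against 55, for example. The fit of the adult arrays alone was read for the 137 probes chosen by fixed rules, and 19 of them did not keep their call against 0-4 h embryos. Among these were TpnC4, Ggamma30A, santa-maria, Yp1, Cp38, Ugt35C1, Lip4, RpS5b and Prosalpha6. For other genes named below, such as trp, Arr1, Obp56i and Acp53C14c, its outcome is not given.

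**Figure D1:**
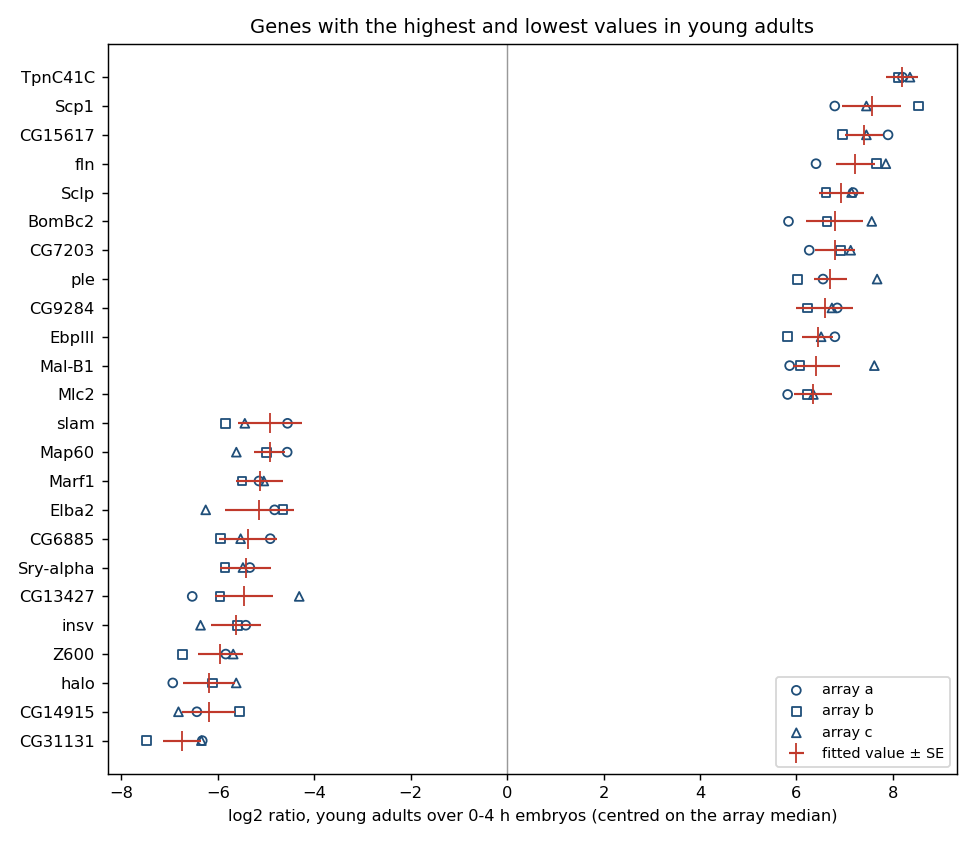
Log2 ratio of young adults over 0-4 h embryos (horizontal axis) for the 12 named genes with the highest and the 12 with the lowest values. Open symbols are the 3 adult arrays and red bars the fitted value ± SE. By the rule of choice arrays a, b and c lie on the same side of 0 for each of the 24 genes. TpnC41C is highest at 8.19 and CG31131 lowest at -6.74.

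The highest value in young adults was that of a muscle gene, and 4 of the 12 highest were muscle genes. TpnC41C, a calcium-binding troponin C of adult muscle, had log2 ratios of 8.20, 8.11 and 8.35 on arrays a, b and c, with a fitted value of 8.19 ± 0.34 (SE, n = 3 arrays, adjusted p = 8.15e-12). Its arrays lay within a narrow band far above 0. fln, which encodes the thick filament protein flightin of flight muscle, had 6.41, 7.65 and 7.85 (7.22 ± 0.40, adjusted p = 3.49e-10). Scp1, a sarcoplasmic calcium-binding protein, had 6.79, 8.54 and 7.45 (7.56 ± 0.62, adjusted p = 2.93e-08). Mlc2, the regulatory light chain of muscle myosin, had 5.82, 6.22 and 6.35 (6.34 ± 0.40, adjusted p = 1.96e-09). For all 4 genes the lowest array still stood above 5. Of 47 probes of 29 sarcomere and muscle genes, 43 were higher in young adults, 1 was lower and 3 did not pass, and their median log2 ratio was 4.00, beside 0.06 over all probes. The higher probes span the sarcomere: sls and bt, giant elastic proteins, Obsc of the M-line, the Z-disc protein Zasp52, the thick filament protein Prm (paramyosin), Tm2 (tropomyosin) and up (troponin T) were among them, named here after their values were seen. With the deposited medians kept, 39 of the 47 probes were higher.

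Probes of 1 muscle gene did not always match. Scp1 had further probes at 1.76 and 0.24 that did not pass. Argk1, the arginine kinase that buffers ATP, had one probe at 2.31 and another at -1.22, both past the threshold, and the second is the lower probe of the muscle list. The actin gene Act88F of flight muscle had 3.26, 2.17 and 2.77 on the 3 arrays (2.86 ± 0.28, adjusted p = 2.17e-07), and the troponin C gene TpnC4 of flight muscle had 3.76, 4.44 and 1.02 (3.06 ± 0.55, adjusted p = 1.92e-04). Array c stood well below the others for TpnC4. Probe sequences were not used here, and signal shared between similar genes, such as the actins, cannot be told apart from their own.

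Genes of the eye also held values far above 0. Phototransduction starts with rhodopsin and a G protein that activates a phospholipase and, through it, the TRP channels, and arrestins end the response. Arr2, the major arrestin of the photoreceptors, had 5.08, 4.17 and 6.17 on the 3 arrays (5.14 ± 0.40, adjusted p = 2.05e-08). Gbeta76C, the G protein beta subunit of this cascade, had 4.83, 5.95 and 4.11 (4.98 ± 0.34, adjusted p = 3.98e-09). Ggamma30A, its gamma subunit, had 3.91, 4.04 and 6.71 (4.80 ± 0.45, adjusted p = 1.41e-07). The arrays of these 3 genes differed among themselves, but the lowest still lay above 3. The channel gene trp varied more, with 1.94, 6.19 and 3.60 (3.75 ± 0.79, adjusted p = 8.35e-04). Arr1, the second arrestin, was higher at 2.62, and santa-maria, a scavenger receptor needed for making the visual chromophore, at 3.93. Of 33 probes of 25 eye genes 17 were higher (51.5%, beside 15.2% of all probes) and 0 lower, with a median of 1.52. The eye pigment genes st, cn and bw did not pass, at values from -0.51 to 0.32.

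Among chemosensory genes the soluble odorant binding proteins gave the high values, while most receptors did not pass. Obp57c had 5.20, 4.18 and 6.36 (5.21 ± 0.44, adjusted p = 4.80e-08), Obp44a was higher at 4.90 and Obp56e at 3.81. Of the 148 probes of the list, 23 were higher (15.5%, close to the 15.2% of all probes), 4 were lower and 121 did not pass. The 4 lower probes were those of the receptor genes Gr23a, Gr47a, Gr64f and Or43b, and the co-receptor gene Orco had a value of -0.58 and did not pass. The Obp56 genes lie close together on chromosome arm 2R (RefSeq, Release 6 plus ISO1 MT) and differed among themselves. Obp56c, Obp56d, Obp56e, Obp56g and Obp56i were higher, with values of 4.75, 2.87, 3.81, 3.70 and 1.32, whereas Obp56a, Obp56b and Obp56h had 0.20, 0.02 and -0.07 and did not pass. The list's median of 0.36 turned to -0.19 with the deposited medians kept, so no direction is given for the list as a whole.

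Of 63 probes of 45 genes of the nervous system, 23 were higher (36.5%, beside 15.2% of all probes), 2 lower (3.17%, beside 19.2%) and 38 did not pass, with a median of 0.44 that turned to -0.12 with the deposited medians kept. ple, the tyrosine hydroxylase that makes the dopamine precursor for neurons and for cuticle tanning, had 6.55, 6.02 and 7.67 on the 3 arrays (6.71 ± 0.33, adjusted p = 1.65e-10). Gs2, a glutamine synthetase, had 3.99, 4.96 and 5.54 (4.66 ± 0.47, adjusted p = 3.02e-07). Gad1, which makes the transmitter GABA, was higher at 3.62, and the potassium channel gene Shab at 3.60. These were the highest of the list, and ple also stands in the cuticle list below. The 2 lower probes were those of Csp, a synaptic vesicle chaperone, at -1.59 and of the potassium channel gene Sh at -1.30. The pan-neuronal gene elav had -1.01 and did not pass.

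Genes of male reproduction held several of the highest values. EbpIII, a protein of the ejaculatory bulb, had 6.80, 5.81 and 6.51 on the 3 arrays (6.44 ± 0.33, adjusted p = 1.65e-10), and Ebp had 5.99, 5.28 and 7.17 (6.01 ± 0.41, adjusted p = 3.90e-09). High values of EbpIII were not particular to adults: its fitted value was 4.08 in embryos 12-16 h old, 0.84 in larvae and 5.02 at pupal stage 3. Ebp had -1.20 in embryos 12-16 h old. Acp36DE, a seminal protein needed for sperm storage, had 5.17, 5.26 and 6.01 (5.52 ± 0.44, adjusted p = 2.12e-08). Each array stood above 5 for these 3 genes. Of 32 probes of 29 accessory gland and ejaculatory genes, 20 were higher (62.5%, beside 15.2% of all probes) and 11 did not pass. The remaining probe, of the seminal metalloprotease gene Semp1, was lower at -2.05. The list's median was 1.75. Acp26Aa, known as ovulin, had 2.01, -0.15 and -1.36 and did not pass (0.27 ± 0.59, adjusted p = 0.777), with arrays on both sides of 0. The accessory gland genes Acp53C14a, Acp53C14b, Acp53Ea and Acp53C14c are direct neighbours on arm 2R and all were higher, with values of 3.00, 5.26, 3.61 and 0.73, the last close to the threshold (adjusted p = 0.0486).

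Genes of the testis and sperm were higher with 34 of 62 probes (54.8%, beside 15.2% of all probes), 1 probe was lower and 27 did not pass. Their median was 1.39, and with the deposited medians kept 22 were higher. Mst84Da, a cysteine-rich protein of the sperm tail, had 5.39, 4.62 and 5.34 (5.13 ± 0.32, adjusted p = 1.63e-09). dj, which encodes the sperm protein don juan, had 5.96, 5.40 and 3.69 (5.04 ± 0.48, adjusted p = 1.80e-07). Mst77F, a chromatin protein of the sperm head, had 4.12, 4.22 and 6.37 (4.86 ± 0.60, adjusted p = 3.46e-06), and S-Lap7, a leucyl aminopeptidase of sperm, was higher at 4.68. All arrays of these genes lay above 3. The neighbouring genes Mst84Da, Mst84Db, Mst84Dc and Mst84Dd on arm 3R were higher at 5.13, 3.06, 4.08 and 2.92. In contrast, regulators of spermatocyte transcription in the list (aly, can, mia, sa, comr, topi) had values between -0.47 and 1.45 and did not pass. The lower probe was that of betaTub85D, the beta tubulin of the male germ line, with -1.19, -1.30 and -1.28 (-1.14 ± 0.28, adjusted p = 0.00333).

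Female reproduction was represented by the yolk proteins. Yp2 had 6.61, 5.63 and 6.31 on the 3 arrays (6.22 ± 0.32, adjusted p = 1.65e-10), and its other probe had 6.08, 3.94 and 6.79 (5.58 ± 0.42, adjusted p = 1.34e-08). Yp3 had 3.74, 3.34 and 4.08 (3.77 ± 0.32, adjusted p = 4.84e-08). Yp1 had 4.94, 0.84 and 4.74 (3.52 ± 0.64, adjusted p = 2.28e-04). Array b was the lowest for every one of these probes, by more than 2 for Yp1 and the second Yp2 probe and by less than 1 for Yp3 and the first. Among eggshell genes Cp38 had 2.55, 2.79 and 4.48 (3.21 ± 0.49), Cp18 was higher at 2.15 and Cp36 at 0.80, while Cp15, Cp16, Cp19 and the vitelline membrane gene Vm26Aa did not pass. The yolk receptor gene yl was lower, at -2.26, and is the lower probe of this list. Of its 19 probes 8 were higher (42.1%, beside 15.2% of all probes). The list's median was 0.78, and 0.23 with the deposited medians kept.

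Digestive enzymes were higher with 37 of 61 probes (60.7%, beside 15.2% of all probes) and lower with 1. Mal-B1, a maltase, had 5.86, 6.07 and 7.61 on the 3 arrays (6.41 ± 0.49, adjusted p = 1.47e-08). Amy-p, the starch-cleaving alpha-amylase, had 4.39, 4.01 and 6.79 (4.99 ± 0.65, adjusted p = 6.00e-06), and its other probes were higher at 2.32 and 1.52. Jon65Aiii, a serine endopeptidase of the gut, had 4.65, 4.11 and 4.69 (4.51 ± 0.36, adjusted p = 2.27e-08). Array c was the highest for both sugar enzymes. Mal-A6 was higher at 4.74, and the lower probe was that of another maltase gene, Mal-A5, at -1.10. The Jon65A genes lie side by side on arm 3L and were uneven: Jon65Aiv and Jon65Aiii were higher at 3.89 and 4.51, whereas Jon65Aii and Jon65Ai had 0.02 and 0.58 and did not pass. The list's median was 1.75, and 23 probes were higher with the deposited medians kept.

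Energy metabolism was higher as a group after centring. Of 74 probes of 70 genes of the respiratory chain and ATP synthase, 55 were higher, 0 lower and 19 did not pass, with a median of 1.55. The values of the list ran from -0.73 to 3.32, the highest being that of COX6AL2. ATPsynbeta, the catalytic subunit of ATP synthase, had 3.36, 1.99 and 1.93 (2.62 ± 0.30, adjusted p = 1.53e-06). Of 17 probes of 16 genes of glycolysis and alcohol breakdown, 15 were higher and 0 lower, with a median of 1.69. Adh, alcohol dehydrogenase, had 4.59, 2.68 and 3.28 (3.67 ± 0.31, adjusted p = 3.70e-08), Hex-C, a hexokinase, was higher at 3.42 and Gpdh1, glycerol-3-phosphate dehydrogenase, at 2.85. Adh was highest on array a and all its arrays lay above 2. These counts depended on the centring: with the deposited medians kept, 8 of the 74 and 4 of the 17 probes were higher, with medians of 1.00 and 1.14.

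For fat storage and lipid transport 10 of 22 probes were higher (45.5%, beside 15.2% of all probes) and 0 lower. The list's median was 0.98. Acbp2, an acyl-CoA binding protein, had 4.79, 4.69 and 6.12 (5.19 ± 0.44, adjusted p = 4.25e-08), and Tsf1, the iron carrier transferrin, had 3.78, 3.86 and 4.12 (3.84 ± 0.34, adjusted p = 8.00e-08). Both had every array above 3. FASN1, a fatty acid synthase, was higher at 3.59, but at 2.74 without array a it did not pass (adjusted p = 0.0696). Lip4, a lipase, had 1.54, 2.07 and 6.24 (3.21 ± 0.63, adjusted p = 4.68e-04), with array c far above the others. The lipase gene bmm and the lipid droplet gene Lsd-2 had -0.80 and -1.70 and did not pass. With the deposited medians kept, 5 of the 22 probes were higher.

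Immune effectors were higher with 13 of 30 probes (43.3%, beside 15.2% of all probes) and lower with 0, and their median was 1.02. BomBc2, a member of the Bomanin family of secreted peptides that act downstream of Toll, had 5.83, 6.63 and 7.56 on the 3 arrays (6.79 ± 0.59, adjusted p = 6.28e-08). Drsl4, a relative of the antifungal peptide drosomycin, had 5.00, 2.61 and 2.65 (3.51 ± 0.54), and AttB, an attacin, had 3.36, 3.39 and 3.25 (3.11 ± 0.50). The lowest array of BomBc2 stood above the highest array of both. Of the other Bomanins with a probe, BomT2 was higher at 2.57 and BomBc3 at 1.96, and BomT3 had 0.94 and did not pass (adjusted p = 0.0517). The peptide genes Def and CecB had -0.13 and -0.68 and did not pass. With the deposited medians kept, 5 of the 30 probes were higher.

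Among genes of detoxification families most probes did not pass. Of 90 cytochrome P450 probes 21 were higher (23.3%, beside 15.2% of all probes), 10 lower (11.1%, beside 19.2% of all probes) and 59 did not pass, and 13 were higher without array c. Of 72 probes of glutathione and UDP transferases 21 were higher (29.2%), 7 lower (9.72%) and 44 did not pass. Their medians of 0.47 and 0.42 turned to -0.08 and -0.14 with the deposited medians kept. Cyp4g1, which makes cuticular hydrocarbons in oenocytes, had 5.66, 3.75 and 4.84 (4.80 ± 0.42, adjusted p = 6.31e-08). spo, a P450 of ecdysteroid synthesis, had -3.96, -4.08 and -4.11 (-4.06 ± 0.34, adjusted p = 3.70e-08). The 2 genes lay on opposite sides of 0 on every array. Further ecdysteroid enzymes, dib at -2.53 and shd at -1.60, were lower as well, while sad had -0.76 and did not pass. Among transferases Ugt305A1 was higher at 3.82, Ugt35B1 at 3.36, Ugt35C1 at 3.34 and Ugt301D1 at 3.02.

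Genes of the cuticle and of larval storage showed a few high values among many that did not pass. Of 29 probes of adult and pupal cuticle genes 12 were higher (41.4%, beside 15.2% of all probes) and 0 lower, with a median of 0.68. Vajk3 had 5.44, 4.47 and 5.11 (5.05 ± 0.40, adjusted p = 2.12e-08) and its neighbour Vajk2 4.82, 4.04 and 4.58 (4.57 ± 0.41, adjusted p = 7.61e-08). The adult cuticle gene Acp65Aa had 4.76, 3.95 and 3.54 (4.06 ± 0.71, adjusted p = 1.52e-04). All 3 stood above 3 on every array. Of 12 probes of larval cuticle genes 0 passed in either direction. Among 26 probes of larval serum and salivary glue genes 6 were higher (23.1%, beside 15.2% of all probes) and 1, of Eig71Eg, was lower at -1.08. Lsp2, a storage protein of the larval fat body, had 6.17, 5.34 and 6.41 (5.996 ± 0.40, adjusted p = 2.84e-09), and Fbp1, a receptor for storage proteins in the fat body, had 4.66, 3.99 and 4.22 (4.30 ± 0.33, adjusted p = 1.67e-08). Both were thus still high in the young flies, whereas the glue genes Sgs1, Sgs3, Sgs4, Sgs5, Sgs7 and Sgs8 did not pass.

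**Figure D2:**
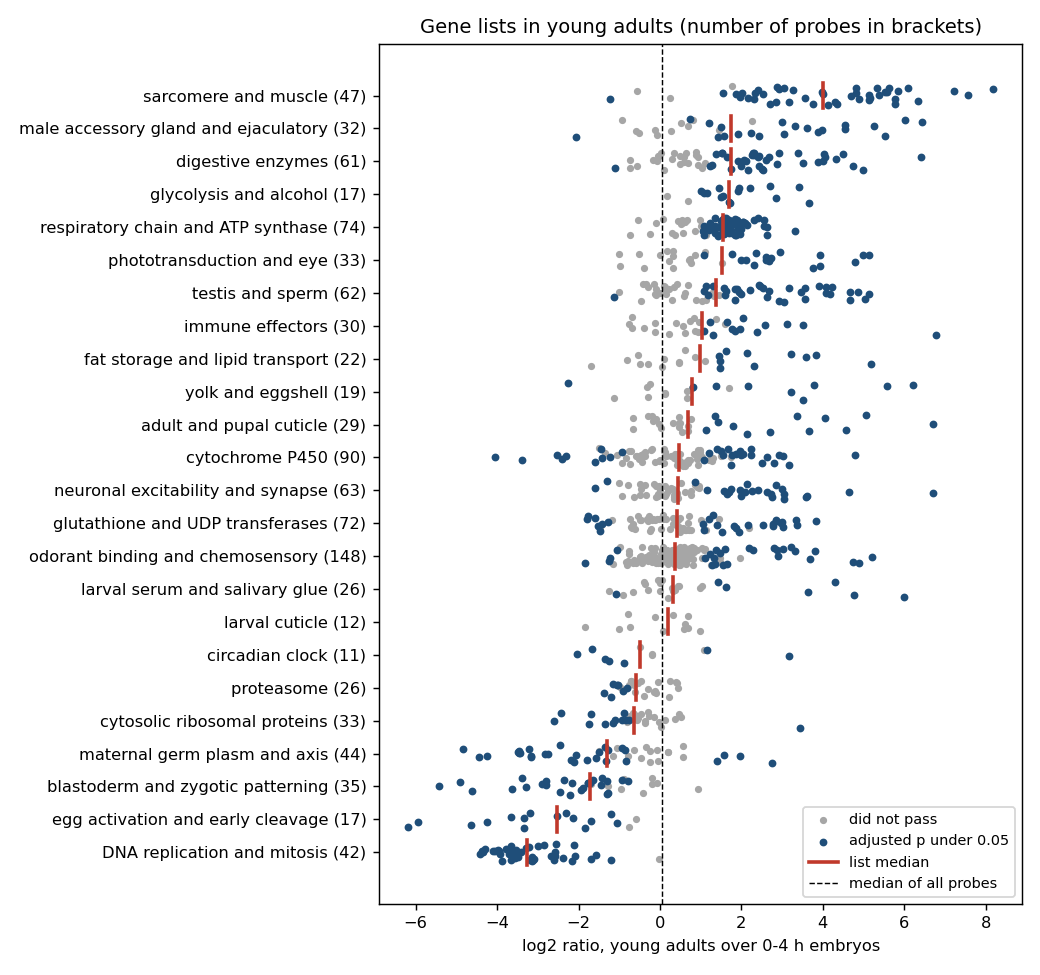
Log2 ratio of young adults over 0-4 h embryos for the probes of 24 gene lists, ordered by median, with the number of probes in brackets. Blue points passed the test and grey points did not, the red line is the list median and the dashed line the median of all probes at 0.06; muscle lies at the top with a median of 4.00 and DNA replication and mitosis at the bottom with -3.26.

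Lower in young adults were first of all genes of cell division. Of 42 probes of 40 genes of DNA replication and mitosis, 41 were lower, and the remaining one, of the DNA polymerase gene PolA1, had -1.06, 0.53 and 0.65 and did not pass. Their median was -3.26. pim, the fly securin, a protein of chromatid separation, had -4.03, -4.82 and -4.49 (-4.37 ± 0.52, adjusted p = 2.07e-06). SMC2, a condensin subunit, had -4.24, -4.59 and -4.29 (-4.33 ± 0.35, adjusted p = 2.80e-08). CycB, cyclin B, had -4.15, -4.21 and -5.04 (-4.30 ± 0.50, adjusted p = 1.59e-06). The 3 genes lay in one narrow range, with no array above -4. Klp61F, a kinesin of the spindle, was lower at -4.10. The same number of probes, 41, was lower with the deposited medians kept.

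Genes of egg activation and the early embryo were lower with 15 of 17 probes, and the remaining 2, of png and cort, had -0.76 and -0.58. The list's median was -2.52. halo, which acts in the transport of lipid droplets, had -6.94, -6.11 and -5.62 on the 3 arrays (-6.18 ± 0.55, adjusted p = 6.95e-08). Z600, an inhibitor of mitosis at gastrulation, had -5.84, -6.74 and -5.68 (-5.95 ± 0.47, adjusted p = 2.26e-08). dhd, a germ-line thioredoxin, had -4.28, -4.79 and -5.19 (-4.63 ± 0.49, adjusted p = 5.07e-07). Each array of the 3 genes lay below -4. BigH1, an embryonic linker histone, was lower at -4.26.

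Blastoderm genes were lower with 26 of 35 probes and higher with 0, with a median of -1.73. Sry-alpha, needed for cellularization, had -5.34, -5.85 and -5.48 (-5.43 ± 0.53, adjusted p = 2.18e-07), and its other probe was lower at -0.94. slam, also needed for cellularization, had -4.56, -5.85 and -5.44 (-4.92 ± 0.66, adjusted p = 8.34e-06). bnk, a regulator of the actin network during cellularization, had -4.89, -5.01 and -4.63 (-4.62 ± 0.61, adjusted p = 7.05e-06). By the rule of choice these 3 genes and zen had the largest absolute values among the called genes of the list. Their order is therefore no result about cellularization against patterning. The homeobox gene zen, of dorsal patterning, was lower at -3.63, the gap genes hb, gt, Kr and kni at -3.40, -1.88, -1.77 and -1.29, and the pair-rule genes ftz, prd and odd at -3.29, -2.45 and -1.29. The last 7 were named after their values were seen.

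Of 44 probes of maternal genes of the germ plasm and the body axes, 25 were lower (56.8%, beside 19.2% of all probes). A further 4 were higher and 15 did not pass, and the list's median was -1.30. smg, which represses and clears maternal RNAs, had -4.49, -5.18 and -5.19 (-4.83 ± 0.47, adjusted p = 2.33e-07). The receptor gene tor had -3.68, -5.71 and -4.46 (-4.44 ± 0.78, adjusted p = 1.66e-04). me31B, a helicase of stored RNA particles, had -3.79, -4.12 and -4.92 (-4.24 ± 0.37, adjusted p = 5.77e-08). Arrays of all 3 lay below -3. swa, which acts in the placing of bicoid RNA, was lower at -3.50, and osk, the organizer of the germ plasm, at -3.21. The 4 higher probes were those of tsl at 2.75, wbl at 1.98, dl at 1.57 and capu at 1.41. tsl and wbl act in the follicle cells of the ovary. dl and capu each had another probe that was lower, at -1.31 and -0.86.

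The remaining genes among the 12 lowest were CG31131 at -6.74, CG14915 at -6.19, insv at -5.63, CG13427 at -5.46, CG6885 at -5.37, Elba2 at -5.14, Marf1 at -5.13 and Map60 at -4.93. CG31131 had -6.32, -7.49 and -6.34 on the 3 arrays (-6.74 ± 0.39, adjusted p = 7.25e-10), the lowest value of all probes. insv and Elba2 both encode BEN-domain proteins that bind DNA. Among the 12 highest, CG15617 at 7.41, Sclp at 6.93, CG7203 at 6.79 and CG9284 at 6.58 are named only, since no role is given for them here.

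Of 33 probes of cytosolic ribosomal protein genes, which make up the protein part of the ribosome, 11 were lower (33.3%, beside 19.2% of all probes), 1 was higher and 21 did not pass. Their median was -0.64, and -1.19 with the deposited medians kept. Of all 13455 probes with 1 gene symbol, from which the list was drawn, 3689 were lower. The paralogs RpL10Aa and RpS5b stood at the ends of this list: RpL10Aa had 3.44, 3.54 and 3.06 (3.45 ± 0.49, adjusted p = 1.77e-05), and RpS5b had -1.31, -2.75 and -3.87 (-2.59 ± 0.41, adjusted p = 5.11e-05). Proteasome subunits had a median of -0.59, and -1.14 with the deposited medians kept. Of their 26 probes 7 were lower (26.9%, beside 19.2% of all probes) and 0 higher (beside 15.2%). The share of lower proteasome probes was close to that of all probes with 1 gene symbol. It is therefore no result about the proteasome. The lowest was Prosalpha6, a subunit of the core particle, with -0.77, -2.05 and -1.84 (-1.38 ± 0.27, adjusted p = 4.43e-04). Array a was the highest for it, and without array a 1 proteasome probe was lower, without array b 2 and without array c 4. With arrays scaled to equal spread 3 were lower, and with the adult arrays fitted alone 0. Of the ribosomal probes 4 were lower without array c, 7 without array b, 7 with the deposited medians kept, 7 with no dye term, 6 with equal spread and 2 with the adult arrays alone. The clock genes were divided, with the photoreceptor gene cry higher at 3.17 and Clk at 1.15, the kinase gene dco lower at -2.04 and the transcription factor genes vri and cyc at -1.66 and -1.25, while per and tim had -0.49 and -0.21 and did not pass. Of the 5 lower clock probes 2 were called without array a and 3 without array b or c.

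The higher probes were not spread evenly over the chromosomes. Of 2145 probes of named genes on the X chromosome 13.0% were higher in young adults, against 22.2% on arm 2L, 21.3% on 2R, 19.4% on 3L and 17.7% on 3R (RefSeq, Release 6 plus ISO1 MT). Probes higher by at least 4 made up 0.89% on the X and between 1.34% and 2.05% on these autosomal arms. The share of lower probes ran from 26.4% on 3R to 28.8% on 3L and was 28.7% on the X. On the small chromosome 4, 14.3% of 77 probes were higher and 39.0% were lower. These shares are a description of this array, since genes of one arm are not independent.

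Annotated and unannotated probes also stood apart. Of probes with 1 gene symbol 45.98% differed between young adults and 0-4 h embryos, against 19.0% of probes with none. Among the 390 named genes with 2 or more called probes, 34 had probes on both sides of 0. lola, a gene of many splice forms, had called probes from -3.71 to 2.70 in young adults, and the kinase gene Doa from -3.78 to 2.51. eEF1alpha2, a translation elongation factor gene, had one at 5.95 and another at -1.03. These 3 were chosen after their values were seen, and whether the probes measure different transcripts was not tested.

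Pupal stage 3 is the stage next to the adult in the study, and young adults were also compared with these pupae. A gene that differed was not always high for the first time in adults. Yp2 and Jon65Aiii, for example, also had high values at an earlier stage, given below. Here 261 probes were higher in young adults (1.1% of the probes) and 21 were lower (0.0882%; limma, adjusted p under 0.05), and 3073 differed at an unadjusted p under 0.05. The count rests on the arrays and settings used: it was 127 without adult array c, 57 with the similar pupal arrays a and b (r = 0.892 at pupal stage 3) averaged, 12 with the deposited medians kept and 0 with only the 6 arrays compared, where 4585 probes had an unadjusted p under 0.05. Both stages were hybridised against 0-4 h embryo RNA, and differences between its preparations, if there were several, cannot be told apart from a difference between the stages.

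The largest difference was that of Yp2, with 6.61, 5.63 and 6.31 in young adults, against 0.59, 0.43 and -0.19 at pupal stage 3, a difference of 5.97 ± 0.46 (adjusted p = 9.16e-07). The lowest adult array stood far above the highest pupal one. Of the other yolk protein genes, Yp3 was higher by 3.57 ± 0.46 (adjusted p = 4.38e-04), while the difference of 3.71 ± 0.91 for Yp1 did not pass (adjusted p = 0.0512). BomBc2 had 5.83, 6.63 and 7.56 in young adults, against 1.16, 0.86 and 0.86 at pupal stage 3 (5.94 ± 0.85, adjusted p = 0.00126). It was the 1 probe of the immune list that passed here.

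Digestive enzymes were higher than at pupal stage 3 with 13 of 61 probes (beside 1.1% of all probes) and lower with 0 (beside 0.0882%). Their median difference was 1.52, beside 0.12 over all probes. Jon65Aiii had 4.65, 4.11 and 4.69 in young adults, against 0.14, 0.07 and 0.16 at pupal stage 3 (4.42 ± 0.51, adjusted p = 1.63e-04). Amy-p had 4.39, 4.01 and 6.79 in young adults, against 0.71, 0.56 and 0.66 at pupal stage 3 (4.26 ± 0.92, adjusted p = 0.0241). The pupae were near the level of the early embryo for both. The difference for Amy-p did not pass without adult array a (4.50) or c (3.51). Mal-B1 was higher by 3.85, gammaTry, a trypsin, by 3.80, Mal-A6 by 3.65 and Mal-A8 by 3.39. The list medians were 1.63 in larvae, 0.17 at pupal stage 3 and 1.75 in young adults. Jon65Aiii itself stood at 4.75 in larvae and 4.51 in young adults.

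Accessory gland and ejaculatory genes were higher than at pupal stage 3 with 9 of 32 probes (beside 1.1% of all probes) and lower with 0. Ebp had 5.99, 5.28 and 7.17 in young adults, against 0.50, 0.97 and 1.67 at pupal stage 3 (4.83 ± 0.58, adjusted p = 2.22e-04). Acp36DE had 5.17, 5.26 and 6.01 in young adults, against 1.96, 1.74 and 2.02 at pupal stage 3 (3.65 ± 0.62, adjusted p = 0.00514). EbpIII, in contrast, already stood at 5.02 in the pupae, and its difference of 1.41 ± 0.47 did not pass (adjusted p = 0.171). Of the testis genes 2 of 62 probes were higher, beside 1.1% of all probes: Mst84Da by 2.88 and S-Lap7 by 2.22. The pupal values of these genes were 2.25 and 2.46.

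**Figure D3:**
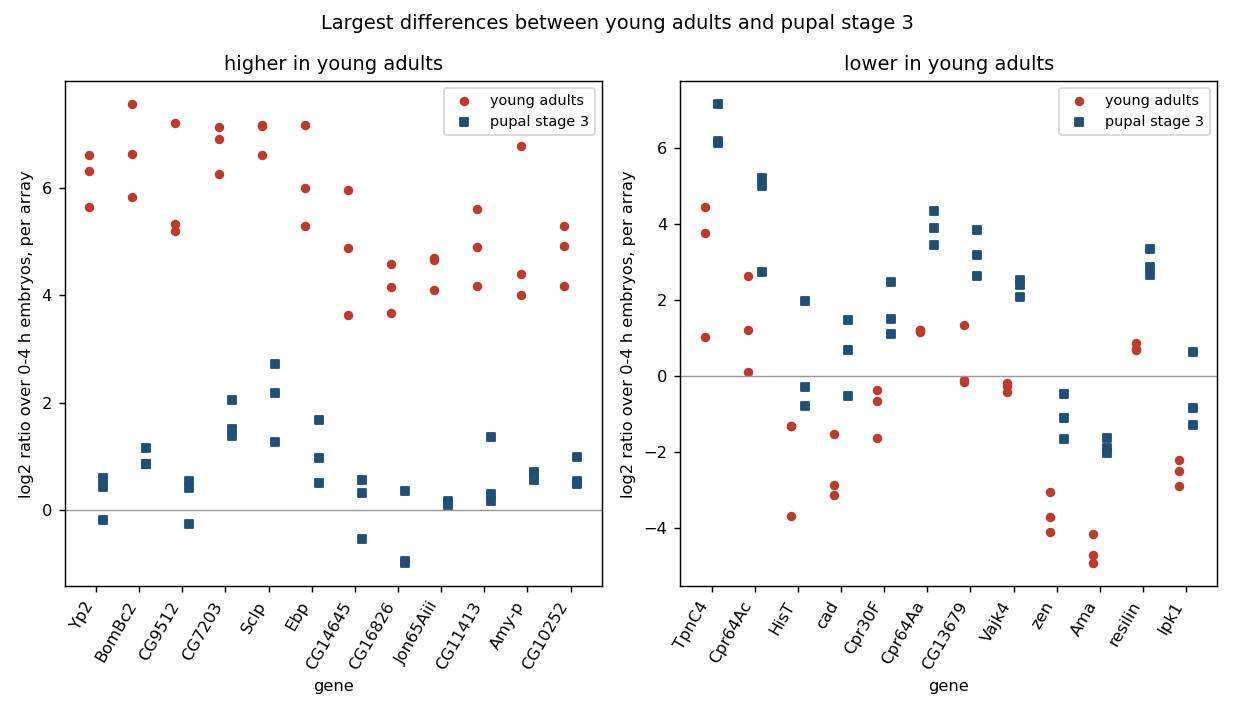
Log2 ratio over 0-4 h embryos on each array of young adults (red circles, left) and of pupal stage 3 (blue squares, right) for the 12 named genes with the largest positive and the 12 with the largest negative differences. By the rule of choice the arrays of the stages do not overlap; Yp2 lies between 5.63 and 6.61 in young adults and between -0.19 and 0.59 at pupal stage 3.

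Muscle genes were mostly high at pupal stage 3 already. TpnC41C had 8.20, 8.11 and 8.35 in young adults, against 6.17, 6.31 and 6.34 at pupal stage 3, and its difference of 1.88 ± 0.48 did not pass (adjusted p = 0.0619). fln had a value of 7.22 in young adults, against 6.34 at pupal stage 3 (0.88 ± 0.58, adjusted p = 0.557). The list medians were 4.00 in young adults and 3.12 at pupal stage 3. Mlc2 was the muscle probe that was higher, by 3.25 ± 0.57 (adjusted p = 0.00648), and TpnC4 the one that was lower: it had 3.76, 4.44 and 1.02 in young adults, against 6.12, 6.16 and 7.15 at pupal stage 3 (-3.44 ± 0.78, adjusted p = 0.0330). TpnC4 differed by -2.43 without adult array c and then did not pass.

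The other lower genes included cuticle proteins and patterning genes. Cpr64Aa, a chitin-binding cuticle protein, had 1.16, 1.19 and 1.21 in young adults, against 4.32, 3.88 and 3.44 at pupal stage 3 (-2.68 ± 0.39, adjusted p = 0.00150). Cpr64Ac differed by -3.04, Cpr30F by -2.68 and resilin, the rubber-like protein of elastic cuticle, by -2.30. One probe of Vajk4 had -0.43, -0.19 and -0.26 in young adults, against 2.52, 2.06 and 2.39 at pupal stage 3 (-2.59 ± 0.53), while its other probe had 3.36 in young adults. The homeobox genes cad and zen differed by -2.75 and -2.54, and Ama, a cell adhesion protein of the immunoglobulin family, had -4.18, -4.72 and -4.94 in young adults, against -2.05, -1.90 and -1.64 at pupal stage 3 (-2.52 ± 0.47, adjusted p = 0.00950). All 3 were below the embryo reference in young adults. HisT at -2.86, CG13679 at -2.64 and Ipk1, an inositol phosphate kinase, at -2.12 completed the 12. With the deposited medians kept 0 probes were lower in this comparison, and each of the 12 kept its sign. Leaving out an adult array also mattered here: cad, Cpr64Aa and Ama passed whichever array was left out, and Cpr64Ac (-2.29 without array a), HisT (-2.41 without a), Cpr30F (-2.32 without a), CG13679 (-2.53 without c), Vajk4 (-2.47 without a), zen (-2.31 without b), resilin (-2.23 without b) and Ipk1 (-1.91 without c) did not.

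Some metabolic genes were higher than in the pupae, while most did not pass. Beside each count of this paragraph stand 1.1% of all probes higher and 0.0882% lower. Of the respiratory chain and ATP synthase 8 of 74 probes were higher and 0 lower. Their median difference was 1.16, beside 0.12 over all probes. ATPsynbeta had 3.36, 1.99 and 1.93 in young adults, against 1.29, 1.48 and -0.65 at pupal stage 3 (2.12 ± 0.43, adjusted p = 0.0174), so the arrays left a gap of less than 1. For glycolysis and alcohol breakdown 2 of 17 probes were higher, Adh by 2.44 and Tpi, triosephosphate isomerase, by 1.91. For fat storage and lipid transport 3 of 22 probes were higher, Acbp2 by 3.88, ACC, the acetyl-CoA carboxylase of fatty acid synthesis, by 2.68 and Tsf1 by 2.13. Of the proteasome probes 4 of 26 were higher than at pupal stage 3 and 0 lower: Rpn7 by 2.45, Prosalpha5 by 2.15, Rpt2 by 2.05 and Rpn11 by 1.63. The proteasome median was -0.59 in young adults and -1.89 at pupal stage 3.

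**Figure D4:**
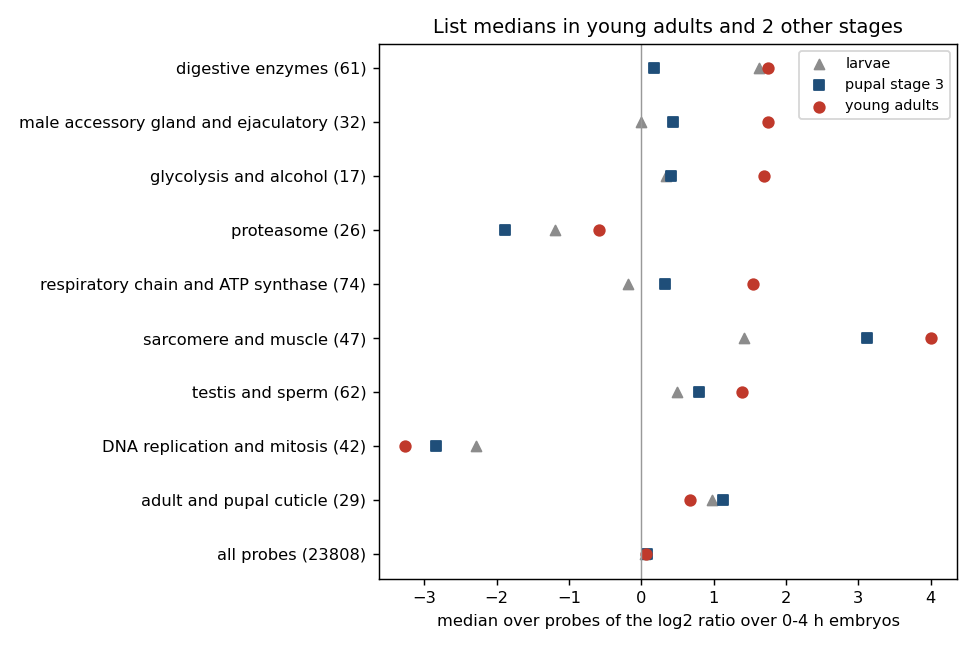
Median over probes of the log2 ratio over 0-4 h embryos for 9 gene lists and all probes, in larvae (grey triangles), pupal stage 3 (blue squares) and young adults (red circles). Digestive enzymes stand at 1.63 in larvae, 0.17 at pupal stage 3 and 1.75 in young adults, and the median of all probes is 0.06 in young adults.

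Last, each probe of the adults was set against all 7 other stages, and called only if every one of the 7 differences held. By this test 30 probes, 28 of them with a gene symbol, were higher in young adults than at every other stage (0.126% of the probes; limma, adjusted p under 0.05), and 665 were at an unadjusted p under 0.05. For the opposite direction limma called 0 probes, with 69 at an unadjusted p under 0.05. The count of 30 was 15 without adult array c and 5 with the deposited medians kept.

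Of the lists, the male accessory gland and ejaculatory genes had 5 of these probes, the digestive enzymes 2, the chemosensory genes 2, and the eye genes and the immune effectors 1 each. Ebp, Acp36DE, Acp53C14b, Acp62F and Acp53C14a of the male tract stood above their next highest stage by 4.69, 3.65, 3.61, 3.33 and 2.97. The maltase genes Mal-B1 and Mal-A8 did so by 3.85 and 3.39. In no list were tobi, a glucosidase gene that responds to insulin and glucagon-like signals, with a margin of 3.13, the trehalose synthase gene Tps1 with 2.51 and the trehalose transporter gene Tret1-2 with 2.31. Sensory genes were Gbeta76C, by 3.57, Obp57c by 3.52 and Obp56e by 2.61. Further members with a known role were BomBc2 by 4.53, the neuropeptide precursor gene Nplp3 by 3.76 and bond, a fatty acid elongase gene, by 2.69. CG7203 had the widest margin, 5.10, with 6.26, 6.91 and 7.12 on the adult arrays, and Sclp followed with 4.83. Yolk genes were not among them: Yp2 stood at 4.39 at pupal stage 2, 0.24 at pupal stage 3 and 6.22 in young adults, and Yp1 at 3.73, -0.19 and 3.52.

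**Figure D5:**
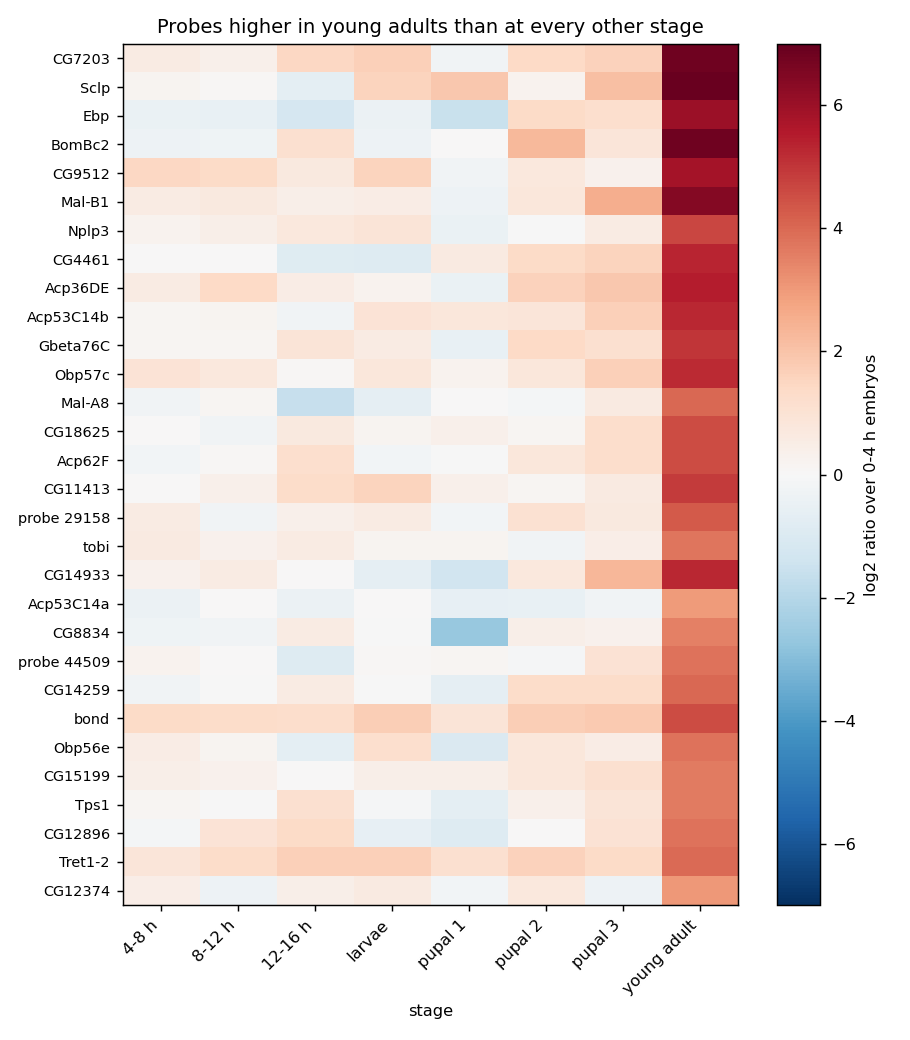
Fitted log2 ratio over 0-4 h embryos (colour, from blue below 0 to red above 0) for the 30 probes higher in young adults than at each of the 7 other stages, with the stages in developmental order and the widest margin at the top. The adult column is the darkest in each line, from 6.93 for Sclp down to 3.00 for Acp53C14a; probes with no gene symbol are shown by number.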

How the data were processed

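The values are log2 ratios of Cy5 over Cy3, deposited by the authors as 1 table with 47616 spots per array. Per the labels, total RNA was labelled indirectly, slides were scanned with ScanArray 3.1 and quantified with GenePix 4.0, and hybridizations were kept by the spread of duplicate spots. How the values were background-corrected or normalized is not given in sources used here. The scale was read from the values, the direction from the labels' dyes, and the deposited medians showed that the arrays had not been centred. The table holds no intensities of the channels, so how far a probe stood above background is not known.

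From the deposited log2 ratios, 633 extreme values (the lowest or highest the scale allows) were dropped. Medians were then subtracted per array, the sign was turned where Cy3 carried the stage, and the 2 duplicate spots gave 1 mean for each of 23808 probes. Of 24 arrays, 1 (pupal stage 1, array c) held no ratios and was not used. limma 3.58.1 in R 4.3.3 fitted 1 coefficient per stage and a dye term per probe over 23 arrays (residual df 14). Tests were two-sided, adjusted by Benjamini-Hochberg across the 23808 probes, and called under 0.05. A probe higher than every other stage had to pass the largest of 7 one-sided p-values. The fit was tested on simulated data. Whether 1 preparation of the reference served all arrays is not stated. Per the platform annotation, 13455 probes had 1 gene symbol, for 11602 genes, and 103 symbols were updated through RefSeq. Samples were not paired by replicate letter in the main fit. Of 20 same-letter pairs of arrays 1 had deviations correlating above 0.1 (-0.20 to 0.15). Pairs of unlike letters were not set beside them, so this does not settle whether the letters pair the samples.

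The genes and the 24 lists were chosen with earlier results of these data known. Named genes are the 12 highest and 12 lowest per comparison (1 symbol, one sign on all adult arrays or no overlap between stages), the 4 largest called members of each list, the tissue markers and members that did not pass; for each gene the probe with the smallest p was taken. Other called genes were picked as examples after their values were seen. The cyclophilins Cyp1 and Cyp40 were taken out of the P450 list, which had matched them by name. Drawings used matplotlib 3.10.9.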

Additional observations from a re-analysis of the deposited data

Results flagged for a closer look

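The difference between young adults and pupal stage 3 was itself tested, and 282 probes passed. Among the named genes it was 5.97 for Yp2, 5.94 for BomBc2, 5.52 for CG9512, 5.17 for CG7203, 4.83 for Sclp and 4.83 for Ebp. It was 4.68 for CG14645, 4.50 for CG16826, 4.42 for Jon65Aiii, 4.27 for CG11413, 4.26 for Amy-p and 4.21 for CG10252. In the other direction it was -3.44 for TpnC4, -3.04 for Cpr64Ac, -2.86 for HisT, -2.75 for cad, -2.68 for Cpr30F and -2.68 for Cpr64Aa. It was -2.64 for CG13679, -2.59 for 1 probe of Vajk4, -2.54 for zen, -2.52 for Ama, -2.30 for resilin and -2.12 for Ipk1. The test against all 7 other stages passed for 30 probes.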

How the results depend on the processing

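Against 0-4 h embryos, 8189 probes were called. The count was 2513 of 3960 probes with close duplicate spots on all adult arrays, 3620 with the 3 adult arrays alone, and between 6123 and 6537 with 1 adult array left out. For pupal stage 3 the count of 282 became 12 with the deposited medians kept, 56 with arrays scaled to equal spread, 160 without the 4 arrays of narrow spread (embryos 4-8 h a and b, 8-12 h a, larvae a), 57 with pupal arrays a and b averaged, 0 with only the arrays compared (4585 at an unadjusted p under 0.05, limma), 825 with duplicate spots fitted with an estimated correlation, and 127 to 206 with 1 adult array left out. The 30 probes higher than every other stage became 5 with the deposited medians kept, 6 with equal spread, 10 without the narrow arrays, 12 with averaged pupal arrays, 66 with the estimated correlation, 1 with close duplicate spots, and 15 to 26 with 1 adult array left out. The settings without the narrow arrays and with averaged pupal arrays were chosen after seeing the data. The cause of these shifts was not tested, apart from the fewer probes or arrays in some. A replicate block by array letter gave 8113, 255 and 30 probes, so it moved no count by over 1.5 times. Of 1802 repeats for named probes against 0-4 h embryos 1754 gave the outcome of the main fit and 48 lost the call. The 1754 include repeats of CG13679, resilin and 1 probe of Vajk4, which the main fit had not called. Against pupal stage 3, 222 repeats kept the call and 93 missed the threshold. Among probes called in the main fit no sign turned in either comparison. Turns of sign were not counted for probes that the main fit had not called. Of the 24 list counts, 16 moved by over 1.5 times with only the arrays compared, 12 with the deposited medians kept, 20 with close duplicate spots, 3 with equal spread and 1 with no dye term. Leaving out arrays a, b or c ended the calls of 6, 4 and 5 named genes against 0-4 h embryos. Fitting only the arrays compared was not run for the third comparison, which uses them all.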

Other observations

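Further probes were higher in young adults than at every other stage but have no role given here. Their margins over the next highest stage were 4.29 for CG9512, 3.75 for CG4461, 3.33 for CG18625, 3.32 for CG11413, 2.97 for CG14933 and 2.92 for CG8834. They were 2.71 for CG14259, 2.52 for CG15199, 2.47 for CG12896 and 2.26 for CG12374, and 2 probes carried no gene symbol. CG9512 had 5.19, 5.32 and 7.21 on the adult arrays, against 0.42, 0.55 and -0.27 at pupal stage 3, so array c was the highest and the stages did not overlap.

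Further genes with large differences from pupal stage 3 stood higher at pupal stage 2 than at pupal stage 3, as Yp2 did. The fitted values at pupal stages 2 and 3 and in young adults were 2.63, 0.13 and 4.80 for CG14645, 2.89, -0.45 and 4.05 for CG16826, and 2.95, 0.63 and 4.84 for CG10252. The difference between the pupal stages was not tested here.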
